A study of Mus musculus with 4 samples.

Results

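The cells described here are the deeply sequenced, T cell receptor negative barcodes of an MC38 tumour series that carried the fewest transcripts of 10 proliferation genes. MC38 is a mouse colon carcinoma line. Deep barcodes were those with at least 10000 unique molecular identifiers (UMIs, each standing for 1 captured transcript) and 0 UMIs over 7 leukocyte and T cell genes (Ptprc, Cd3e, Cd3d, Cd3g, Trac, Trbc1 and Trbc2). For each of them a cycle score was computed as the UMIs of Top2a, Mki67, Cdk1, Pclaf, Tyms, Mcm5, Mcm6, Ccnb1, Rrm2 and Birc5 per 10000 UMIs. The barcodes of interest were chosen by this score. Those at or below its 10th percentile over both libraries, here called low-score barcodes, numbered 1145 of 11447 deep barcodes and of 18778 barcodes in all. The remaining 10302 deep barcodes are the comparison throughout.

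MC38 cells were grown in 10 week old wild-type mice and FOXP3 humanized mice, which received no treatment, and tumours were taken on day 20. Regulatory T cells are defined by the transcription factor FOXP3, and the series asked how those cells are altered in tumours of the humanized mice. Cells were enriched on Percoll as tumour-infiltrating immune cells, captured in droplets on a DNBelab C system and sequenced as 1 cDNA library per genotype. The number of mice behind a library, their strain and sex, and the extent of the humanized segment are not stated in the labels. Every value below is therefore given for each library, no test between groups was possible, and an interval is a 95% interval that covers counting error only.

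A cell that divides makes the enzymes of DNA synthesis in S phase and the spindle and kinase machinery of mitosis in G2, and takes most of these transcripts down again after division. The MuvB complex with B-MYB and FOXM1 activates many late genes and, with the pocket proteins p130 and p107 in the DREAM complex, represses them in resting cells. Cells that rest in G0 and cells that pass through G1 share low levels of these transcripts, so that low levels alone do not separate resting from early G1. Cyclin-dependent kinase (CDK) inhibitors and members of the MXD family, which compete with MYC for its partner MAX, are known for holding cells out of division.

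The score had no gap at the threshold. The 10th percentile lay at a score of 0.906, the highest score inside was 0.90506 and the lowest score outside was 0.90588, against a median of 6.90 and a 90th percentile of 21.4 over all deep barcodes. Within 20% of the threshold lay 346 barcodes on the inner side and 286 on the outer side. Near the threshold the total UMIs decide on which side a barcode with 1 score UMI falls, so a missing gap says little about cell state. The whole distribution had a low peak and a second rise. In bins 1 wide the wild-type library had 697 barcodes from a score of 1, 116 from 9 and 160 from 14. The humanized library had 738 from 0, 189 from 9 and 216 from 12. Low-score barcodes were thus a part of the low peak, with no gap that set them apart. They are called low-score and not non-cycling, because G0 and G1 cells were not told apart. Of the 1145, 431 had no score UMI, 649 had 1, 53 had 2 and the rest had 3 or more. They made up 528 of 5284 deep barcodes in the wild-type library, or 9.99% (exact binomial interval 9.20 to 10.8), and 617 of 6163 in the humanized library, or 10.0% (9.27 to 10.8). The 2 libraries held nearly equal shares under this rule. At the 20th percentile the shares were less equal, at 21.4% and 18.8%, as they were with depth levelled (closing section).

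**Figure D1:**
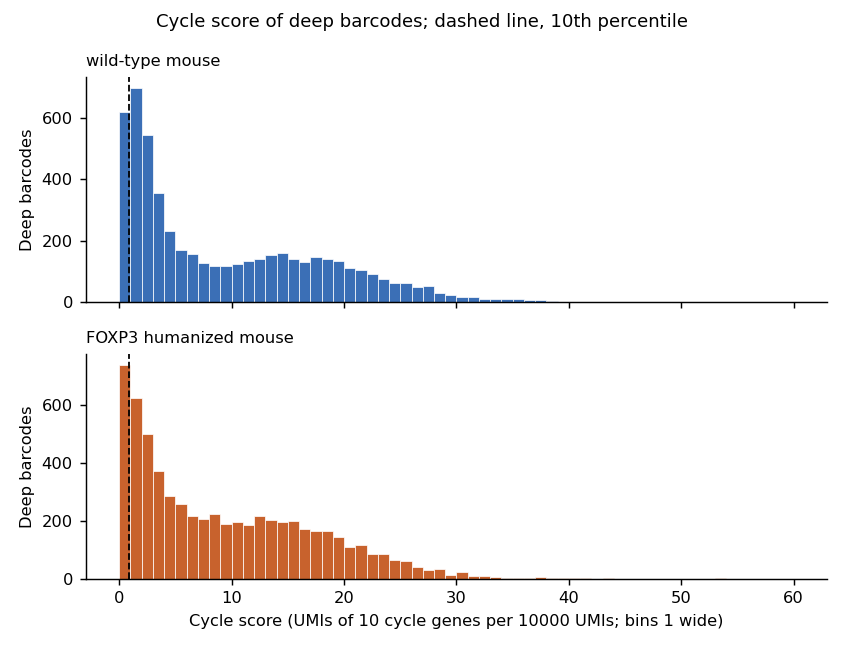
Number of deep barcodes (vertical axis) at each cycle score (horizontal axis, UMIs of 10 cycle genes per 10000 UMIs, in bins 1 wide) in the wild-type and humanized libraries. The dashed line marks the 10th percentile at 0.906, which falls inside the low peak of the distribution in both libraries and not in a gap.

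Low-score barcodes were shallower than the rest. Their median was 14159 UMIs in the wild-type library and 13162 in the humanized library, against 20060 and 16412.5 in the other deep barcodes. After each barcode was thinned at random to 10000 UMIs, the median number of genes was 2670.5 and 2544 in low-score barcodes and 2842 and 2687 in the rest. The median ribosomal protein share was 34.8% and 35.6% of UMIs against 31.8% and 33.5%, and the median mitochondrial share was 0.114% and 0.0971% against 0.145% and 0.104%. Some results are given below with the rest weighted to the depth of the low-score barcodes, because depth and score moved together.

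The label of tumour cells was checked against markers. The list of MC38 and epithelial genes was led by Apobec1, a cytidine deaminase, which stood at 164 counts per 1000000 UMIs (CPM) in wild-type and 71.8 CPM in humanized low-score barcodes against 252 and 91.8 CPM in the rest. Adam2 stood at 79.8 and 24.4 CPM against 120 and 36.4 CPM, and the summed list at 248 and 99.1 CPM against 378 and 132 CPM. The tumour markers were thus lower in low-score barcodes than in the rest in both libraries, though present. The epithelial markers Epcam and Krt18 were at 0 UMIs, Krt8 was at 3 and 4 UMIs and Krt19 at 2 and 3 UMIs in low-score barcodes. Cdh1 was at 29 and 20 UMIs. All 6 natural killer cell markers and the mast cell markers were at 0 in low-score barcodes, and the macrophage list summed to 7.76 and 6.68 CPM, nearly all of it Cd68. The endothelial list summed to 15.5 and 14.7 CPM, against 18.7 and 14.8 CPM in the rest. Most of it was Egfl7, at 90 and 99 UMIs, while Flt1 had 18 and 11 UMIs, Pecam1 9 and 11, Plvap 8 and 7, and Kdr and Tek 0. The pericyte and smooth muscle list summed to 55.8 and 67.7 CPM against 67.5 and 74.0 CPM, nearly all of it Cspg4, at 469 and 598 UMIs, with Rgs5 at 0. No low-score barcode held 3 or more genes of the endothelial, the pericyte or the macrophage list. Of the dendritic and class II list, 4 wild-type and 1 humanized low-score barcodes held 3 or more genes. That list summed to 9.99 and 3.89 CPM against 21.2 and 8.30 CPM in the rest. Nearly all of it was class II genes, with Xcr1, Clec9a, Cd209a and Itgax at 0. Of the 11 fibroblast genes 4 were at 0, Lum, Dpt, Fap and Mfap5. Other fibroblast-list transcripts were not absent, since Dcn stood at 45.7 and 46.3 CPM and Col3a1, a fibrillar collagen, at 470 and 809 UMIs. The summed list was 125 and 158 CPM in low-score barcodes against 97.3 and 113 CPM in the rest. At least 3 fibroblast genes were seen in 32 wild-type and 36 humanized low-score barcodes. With barcodes holding at least 3 genes of a fibroblast, pericyte, endothelial or leukocyte list left out, the counts of genes at 2-fold given below were 4 higher and 269 lower. By these markers the barcodes were largely non-immune and poor in simple keratins, with Apobec1 and Adam2 present. The submitters' label of immune cells does not describe most of them. The gate on leukocyte genes selects for that. Tumour cells with fibroblast transcripts and fibroblasts were not separated from each other. Names of 4 low-score barcodes occurred in both libraries, among 1551 shared names in all. The names are serial labels and were taken as different cells.

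The values that chose the cells are given as a description only. Top2a, the DNA topoisomerase of mitotic chromosomes, stood at 5.88 CPM in wild-type and 3.89 CPM in humanized low-score barcodes, against 251 and 206 CPM in the rest. Mki67, the gene of the proliferation antigen Ki-67, stood at 1.29 and 1.00 CPM against 56.9 and 54.1 CPM. Mcm6, a subunit of the replicative helicase, was the score gene with the smallest gap, at 11.5 and 11.2 CPM against 81.9 and 78.9 CPM.

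Genes outside the score followed it. None of these comparisons is independent of the rule, because the other genes were read from the same cells, and they are given as sizes. A gene was called where the ratio of summed counts was at least 2-fold in the same direction in both libraries with each interval excluding no difference. Of 9104 genes with a mean of at least 5 CPM, 270 were called lower in low-score barcodes (2.97%) and 3 were called higher (0.033%). At 1.5-fold, 524 were called lower (5.76%) and 33 higher (0.362%). The median log2 ratio of all genes tested was -0.11 in the wild-type library and -0.09 in the humanized library, and 88.7% of genes stayed within 1.5-fold in both libraries. The difference between the cells was thus one-sided, with a short list of genes much lower and a few modestly higher.

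**Figure D2:**
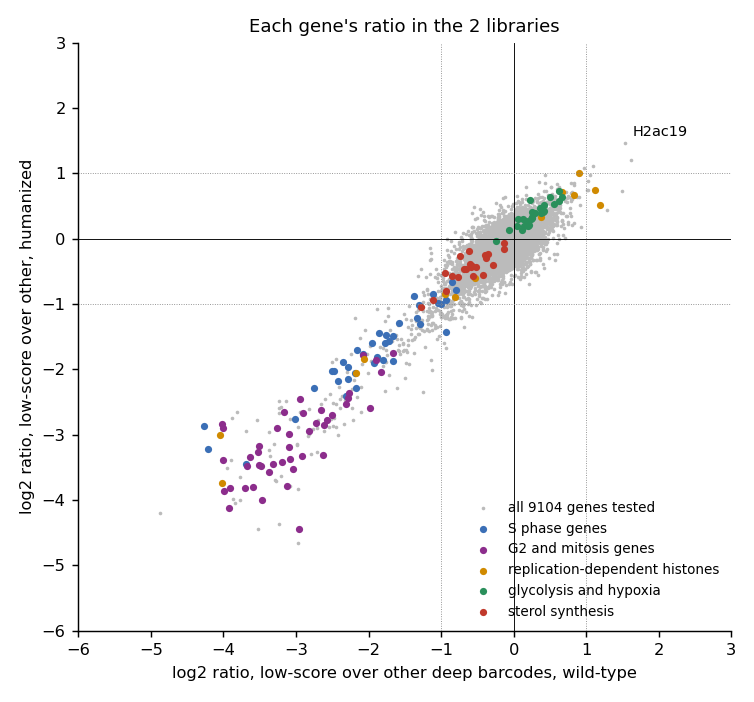
Each point is 1 of 9104 genes, with its log2 ratio of low-score over other deep barcodes in the wild-type library (horizontal axis) and in the humanized library (vertical axis). Dotted lines mark 2-fold. Points of S phase genes and of G2 and mitosis genes lie in the lower left, the glycolysis and hypoxia genes lie mostly above 0 on both axes, and H2ac19 lies at 1.54 and 1.46.

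The mitotic machinery showed the lowest ratios. All 44 tested genes of the 48 on the list of G2 and mitosis genes outside the score were called lower at 2-fold (2.97% of all genes tested), with a median log2 ratio of -3.10 in the wild-type library and -3.18 in the humanized library. Plk1, the kinase that drives entry into and passage through mitosis, stood at 2.35 and 2.34 CPM in low-score barcodes against 35.3 and 32.9 CPM in the rest, log2 ratios of -3.91 and -3.82. Ccna2, the cyclin of S and G2 phase, stood at 7.17 and 9.57 CPM against 91.2 and 107 CPM, log2 ratios of -3.67 and -3.49. Pbk, a mitotic kinase, was the list's lowest gene by the smaller of its 2 ratios, at 5.29 and 4.45 CPM against 80.5 and 77.3 CPM. The spindle genes Hmmr, Kif11 and Dlgap5 and the centrosomal kinase gene Nek2 were each at 1.11 to 1.53 CPM in low-score barcodes and at 15.5 to 24.4 CPM in the rest. Foxm1, an activator of late cycle genes, stood at 4.35 and 5.79 CPM against 33.4 and 31.8 CPM. The 2 libraries gave nearly the same values for each of these genes, and low-score barcodes were lower in both.

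Of the 270 genes lower at 2-fold, 79 stood on the S phase, G2 and mitosis or histone lists and 191 on none of them. The lowest of the latter were also genes of chromosome segregation and repair. Hrob, which loads a helicase in homologous recombination, stood at 0.588 and 0.890 CPM against 17.2 and 16.4 CPM. Esco2, the acetyltransferase of S phase cohesin, stood at 0.823 and 0.556 CPM against 12.1 and 8.81 CPM, and Sgo1, which protects centromeric cohesion, at 2.35 and 1.56 CPM against 33.8 and 25.8 CPM. The remaining genes of that ranking were Aspm, a spindle pole protein, Pimreg, the kinesins Kif15 and Kif22, and Cep55, which acts in the final cut between daughter cells, with log2 ratios from -4.44 to -3.38 over both libraries.

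Promoters of the lower genes were looked at because these genes moved together and because a short element, the cell cycle genes homology region (CHR), is known in late cycle promoters, where the MuvB complex binds. RefSeq windows of 300 bases (250 before and 50 after an annotated start, build GRCm38.p6) were matched by symbol for 220 of the 270 lower genes and 7193 of the 9104 genes tested. The letters TTTGAA were searched on both strands, as were CCAAT, the box often found upstream of them, and as an E2F element TTTCGCGC or TTTGGCGC. The CHR letters were in 28 of 38 promoters of the G2 and mitosis list (73.7%), in 38.6% of 249 promoters of all lower genes, in 16.2% of 37 promoters of the S phase list, in 11.7% of 9198 promoters of genes tested and in 17.9% of 32851 promoters in the table. CCAAT was in 81.6%, 61.4%, 56.8%, 37.5% and 37.4% of the same sets. The E2F letters were in 0 of the 38, and in 7.23%, 24.3%, 1.59% and 0.813% of the other sets in the same order. The G2 and mitosis list thus held the CHR letters most often and the S phase list the E2F letters. Letters of CHR and CCAAT overlapped in 47 of the promoters in the table. A match is a run of letters and was not shown to be bound in these cells.

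The stretches below are the 110 bases just before the start of the 4 named lower genes in which the CHR letters lay within that distance, shown so that the letters can be seen in their setting close to the start. Capitals mark CHR letters and, where there are any, CCAAT letters, on either strand, and each sequence is written 5′ to 3′ on the strand of its gene.
Kif11 (chr19:37376272-37376381, + strand): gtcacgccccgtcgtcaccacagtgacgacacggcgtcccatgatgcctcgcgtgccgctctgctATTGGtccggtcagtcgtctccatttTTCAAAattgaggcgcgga
Kif15 (chr9:122950971-122951080, + strand): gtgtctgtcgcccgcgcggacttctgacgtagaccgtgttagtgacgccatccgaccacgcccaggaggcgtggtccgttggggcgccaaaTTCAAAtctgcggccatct
Kif22 (chr7:127042421-127042530, - strand): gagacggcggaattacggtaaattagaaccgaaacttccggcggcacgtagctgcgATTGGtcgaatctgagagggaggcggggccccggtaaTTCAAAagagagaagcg
Cep55 (chr19:38054931-38055040, + strand): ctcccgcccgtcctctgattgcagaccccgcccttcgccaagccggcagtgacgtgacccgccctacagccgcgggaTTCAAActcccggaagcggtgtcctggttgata
The CHR letters began 19 bases before the start in Kif11 and Kif15, 17 before it in Kif22 and 33 before it in Cep55. All 4 genes were called lower, at 0.556 to 1.89 CPM in low-score barcodes against 12.1 to 21.6 CPM in the rest.

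S phase genes were lower by less. All 38 tested genes of the 43 listed were lower at 1.5-fold (5.76% of all genes tested) and 31 at 2-fold (2.97%), with a median log2 ratio of -1.87 in the wild-type library and -1.74 in the humanized library. Tk1, the thymidine kinase of the salvage pathway, stood at 5.05 and 10.2 CPM against 93.7 and 95.2 CPM. Cdc6, which loads the replicative helicase onto origins, stood at 0.588 and 1.34 CPM against 11.3 and 9.72 CPM. Other genes of replication kept a larger part of their level in low-score barcodes. Dut, which clears dUTP, stood at 250 and 233 CPM against 432 and 401 CPM, Mcm2 at 39.7 and 34.9 CPM against 81.9 and 69.0 CPM, and Pcna, the sliding clamp of the polymerase, at 33.0 and 26.3 CPM against 81.0 and 64.6 CPM. These genes were all lower in both libraries, by gaps that ranged widely within the list.

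No low-score barcode lacked cycle transcripts altogether. Over the S phase and the G2 and mitosis lists together, at 10000 thinned UMIs, the median low-score barcode had 13 UMIs in the wild-type library and 12 in the humanized library, against 50 and 50 in the rest. The 10th percentile of the rest was 13 UMIs in each library, which is the median of the wild-type low-score barcodes. The highest low-score barcode had 41 and 47 UMIs, so that 0 of 528 and 0 of 617 reached the median of the rest.

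Histone genes split in opposite directions. Replication-dependent histone mRNAs end in a stem-loop without a poly(A) tail in dividing cells, and some of these genes are also known to give polyadenylated transcripts in resting and differentiated cells. Of 13 tested genes on the histone list, 4 were higher and 6 lower at 1.5-fold, where 0.362% of all genes tested were higher and 5.76% lower. H1f5, a linker histone, stood at 1.06 and 1.45 CPM in low-score barcodes against 17.1 and 19.4 CPM in the rest, and H1f4 at 10.3 and 8.57 CPM against 46.5 and 35.8 CPM. In the other direction, H1f2 stood at 230 and 205 CPM against 129 and 129 CPM, H2bc4 at 509 and 591 CPM against 320 and 358 CPM, H2ac6 at 35.7 and 25.9 CPM against 19.2 and 12.9 CPM, and H3c4 had log2 ratios of 1.12 and 0.74. Members of the same histone families thus stood on both sides, in both libraries. With the rest weighted to the depth of the low-score barcodes, H1f2 (0.61 and 0.49) and H2bc4 (0.50 and 0.59) no longer passed 1.5-fold, and H2ac6 and H3c4 still did.

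The gene with the largest smaller ratio among those higher was also a histone. H2ac19, a histone H2A gene outside the list, stood at 80.6 CPM in wild-type and 62.4 CPM in humanized low-score barcodes against 27.7 and 22.7 CPM in the rest. Its log2 ratio was 1.54 (1.42 to 1.66) in the wild-type library and 1.46 (1.32 to 1.59) in the humanized library. Histone H2A genes have near-identical copies, among which the counting could split or move reads, so the assignment to this copy is uncertain, as it is for the other histone genes. With the rest weighted to the depth of the low-score barcodes its ratios were 1.31 and 1.30. Over deciles of the score its level fell in every step but the last humanized one, from 80.6 to 10.2 CPM in the wild-type library and from 62.4 to 10.3 CPM in the humanized library.

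The other genes called higher at 2-fold were Fam180a and Lenep. Fam180a stood at 8.11 and 12.6 CPM in low-score barcodes against 2.65 and 5.47 CPM, log2 ratios of 1.61 (1.21 to 2.00) and 1.20 (0.90 to 1.495). Lenep stood at 26.7 and 19.9 CPM against 12.4 and 9.23 CPM, log2 ratios of 1.10 (0.89 to 1.30) and 1.11 (0.87 to 1.34). No single barcode held more than 2.75% of the low-score UMIs of these 3 genes. Lenep no longer passed 2-fold when the rest was weighted to the depth of the low-score barcodes, with ratios of 0.80 and 0.96.

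Genes higher at 1.5-fold only were named after their values were seen, and 27 of the 33, the 3 above included, were not predicted, mitochondrial or ribosomal protein genes. Mxd4, an antagonist of MYC, stood at 22.2 and 19.1 CPM in low-score barcodes against 12.5 and 10.8 CPM, log2 ratios of 0.84 and 0.82. Rgcc stood at 26.4 and 20.9 CPM against 12.9 and 12.5 CPM, and the transcription factor gene Cebpd at 43.3 and 52.3 CPM against 21.6 and 31.3 CPM. All of these were higher in both libraries, with log2 ratios of 0.74 to 1.03.

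The rest of that group held enzymes, carriers and a chaperone. The glutathione transferase genes Gstm1 (16.1 and 11.1 CPM against 9.08 and 6.15 CPM) and Mgst1 were among them. The lysosomal hydrolase genes Neu1 (20.1 and 19.7 CPM against 9.92 and 10.6 CPM) and Hyal1 were higher too. Tet2, which oxidises methylcytosine, stood at 9.52 and 7.23 CPM against 5.59 and 4.64 CPM, and Porcn, which acylates WNT ligands, at 9.05 and 9.24 CPM against 5.22 and 5.12 CPM. Cryab, a small heat shock protein, stood at 1173 and 919 CPM against 677 and 604 CPM. Atosa had the widest gap between the libraries, at 23.3 and 10.9 CPM against 8.23 and 6.57 CPM. Also in the group were Tmem150a, Mterf1a, Serpinb1a, Aqp5, Tom1 and Nsun3, with log2 ratios from 0.59 to 1.05. The count of 33 was sensitive to depth, since 16 genes passed 1.5-fold with the rest weighted to the depth of the low-score barcodes, 15 of them among the 33. Of the genes named in this and the preceding paragraph, Mxd4, Rgcc, Cebpd, Gstm1, Neu1, Tet2, Porcn and Tmem150a still passed. Mgst1, Hyal1, Cryab, Atosa, Mterf1a, Serpinb1a, Aqp5, Tom1 and Nsun3 did not, with Cryab at 0.58 and 0.54 and Atosa at 1.25 and 0.56.

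No CDK inhibitor gene was called higher, and antiproliferative genes lay mostly a little above the rest. Of 7 CDK inhibitor genes, 4 were measured above the minimum level, and Cdkn2a and Cdkn2b had 0 UMIs in low-score and in other deep barcodes of both libraries. Cdkn1a (p21) stood at 107 and 124 CPM in low-score barcodes against 123 and 124 CPM, and Cdkn1b (p27), which is known to build up in resting cells, at 21.9 and 15.5 CPM against 18.6 and 15.6 CPM. Both lay close to the level in the rest. Cdkn2c (p18) and Cdkn2d (p19) were lower, at 12.8 and 10.0 CPM against 21.2 and 20.1 CPM, and at 12.7 and 12.5 CPM against 29.1 and 32.3 CPM. Of 23 tested genes on the list of quiescence and antiproliferative genes, 1 was called at 1.5-fold, Mxd4, and the list median was 0.13 and 0.11. Over all genes tested 0.362% were called higher, so that a count of 0 or 1 in a list of this size is near the background. Signs were more one-sided, since 17 of the 23 lay above 0 in both libraries (73.9%), against 23.5% of all genes tested. Klf9 stood at 122 and 102 CPM against 88.9 and 74.3 CPM, Cited2 at 182 and 176 CPM against 139 and 135 CPM, and Btg1, an antiproliferative cofactor, at 255 and 164 CPM against 218 and 130 CPM. Of 18 tested p53 target genes 0 were called either way at 1.5-fold, and of 13 genes of the senescence-associated secretory list 0 were called higher and 1 lower. These counts too are near the shares of all genes tested, 0.362% higher and 5.76% lower. The medians were -0.06 and -0.10 for the p53 targets and -0.18 and -0.06 for the secretory list, beside -0.11 and -0.09 over all genes.

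A further list held G1 cyclins, their kinases and pocket proteins. Of 13 tested, 9 lay below 0 in both libraries (69.2%, against 55.1% of all genes tested) and 2 above. In a list of this size that share is near the background. The list median was -0.21 and -0.20, beside -0.11 and -0.09 over all genes. Ccnd1 (cyclin D1), the mitogen-driven partner of Cdk4 and Cdk6, stood at 504 and 562 CPM in low-score barcodes against 722 and 728 CPM, log2 ratios of -0.52 (-0.56 to -0.47) and -0.37. Ccnd2 stood at 214 and 220 CPM against 197 and 188 CPM, and Myc at 89.9 and 78.7 CPM against 92.0 and 76.2 CPM. Rbl1 (p107) and Cdk2 were the 2 genes called lower at 1.5-fold, where 5.76% of all genes tested were. Cdk2 stood at 5.29 and 4.90 CPM against 10.6 and 11.2 CPM. Rbl2 (p130) stood at 8.70 and 6.90 CPM against 8.45 and 7.05 CPM. Cyclin D1 and p107 were thus lower in both libraries, and MYC and p130 lay near the level of the rest.

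The deciles of the score show where these genes change. Cdkn2d stayed between 9.4 and 15.7 CPM over the lowest 5 deciles in both libraries and reached 60.4 and 66.0 CPM in the highest. Mxd3, a MAX partner whose transcript is known to be made in S phase, was at 2.2 and 3.1 CPM in the lowest decile and 55.3 and 63.1 CPM in the highest, opposite in direction to Mxd4. Ccnd1 was lowest in the lowest decile in both libraries, and in the wild-type library the other 9 deciles lay between 658 and 760 CPM. Cdkn1b showed no trend beyond its intervals.

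**Figure D3:**
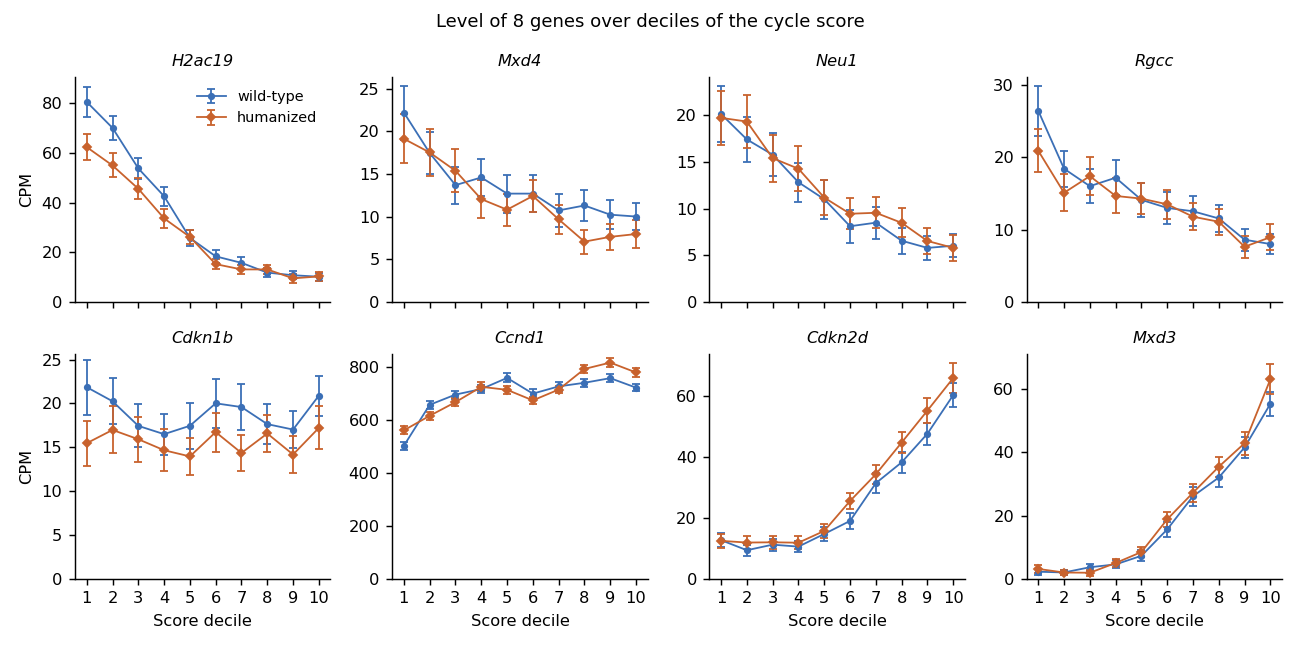
Level in CPM (vertical axis, from 0) of 8 genes over the 10 deciles of the cycle score (horizontal axis), in the wild-type (circles) and the humanized library (diamonds). Bars are approximate 95% counting intervals. Decile 1 is the low-score barcodes, where H2ac19, Mxd4, Neu1 and Rgcc are highest and Ccnd1 lowest in both libraries.

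The nearest neighbours in score differed little. Against the 1145 barcodes of the next decile, with scores from 0.906 to 1.75, 0 of 8862 genes were called at 2-fold (0% either way) and at 1.5-fold 0 were higher (0%) and 6 lower (0.0677%). The 6 were Arsj, Cpeb3, Dzip3, Gm29585, Gm32916 and Spats1, named because they were all there were. The minimum of 5 CPM was applied again to these 2 deciles. Of the 44 G2 and mitosis genes tested above 18 passed it, and of the 38 S phase genes 33 did. The median log2 ratio over the 18 was -0.17 and -0.24 and over the 33 it was -0.31 and -0.14. H2ac19 was at 70.1 and 55.0 CPM in the next decile, close to its 80.6 and 62.4 CPM in the low-score barcodes. Few of the genes tested thus separated the 2 lowest deciles in both libraries, and genes under the minimum could not be called. The larger ratios above are against all higher deciles together.

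Genes of glycolysis and hypoxia and of the lysosome leaned the other way from the cycle genes. On the glycolysis and hypoxia list 24 of 26 tested genes lay above 0 in both libraries (92.3%, against 23.5% of all genes tested), with a median log2 ratio of 0.25 and 0.36, and 2 were called higher at 1.5-fold (0.362% of all genes tested). These were Aldoa (aldolase), at 1351 and 1552 CPM against 853 and 1001 CPM, and Ndrg1, a hypoxia-responsive gene, at 224 and 247 CPM against 146 and 149 CPM. With the rest weighted by depth neither passed 1.5-fold, at 0.55 and 0.59 for Aldoa and 0.53 and 0.70 for Ndrg1, and the list median was 0.22 and 0.34. Smaller gaps were seen for Bnip3, a receptor of mitochondrial autophagy, at 186 and 187 CPM against 131 and 120 CPM, and for the glucose transporter gene Slc2a1, at 89.4 and 123 CPM against 66.7 and 86.0 CPM. Vegfa lay at 58.8 and 51.9 CPM against 54.0 and 47.1 CPM, intervals that include no difference. In the sum of the list per barcode, at 10000 thinned UMIs, 18.9% of wild-type and 22.9% of humanized low-score barcodes were above the 90th percentile of all deep barcodes of their library, against 8.70% and 8.58% of the rest.

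On the lysosome and autophagy list 23 of 25 tested genes lay above 0 in both libraries (92.0%, against 23.5% of all genes tested). The median was 0.24 and 0.22, or 0.16 and 0.18 with the rest weighted by depth. Neu1 alone was called higher at 1.5-fold, where 0.362% of all genes tested were. Sqstm1 (p62), a cargo receptor of autophagy, stood at 1013 and 1029 CPM against 713 and 688 CPM, Gabarap at 814 and 798 CPM against 539 and 576 CPM, and Lamp1, a lysosomal membrane protein, at 366 and 347 CPM against 280 and 281 CPM. The metallothionein genes, whose proteins bind zinc and copper, did not pass 1.5-fold in both libraries, with Mt1 at 7542 and 6409 CPM against 4635 and 4313 CPM and Mt2 at 2856 and 2160 CPM against 1866 and 1580 CPM. Their log2 ratios were 0.70 and 0.57 and 0.61 and 0.45. The ferritin genes Ftl1 (3200 and 3102 CPM against 2139 and 2223 CPM) and Fth1 (4214 and 3168 CPM against 3250 and 2586 CPM) had ratios above 0 while the NRF2 list that holds them had a median of -0.15 and -0.07. A ratio of summed list counts is led by such abundant genes and can differ in sign from the median.

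Nuclear RNAs listed as signs of dissociation and RNA quality moved with these groups. Of 5 listed 2 were tested, and neither passed 1.5-fold in both libraries. Neat1, the scaffold RNA of paraspeckles, stood at 287 and 168 CPM against 183 and 113 CPM, log2 ratios of 0.65 and 0.57, and Malat1 at 442 and 288 CPM against 403 and 271 CPM. Their median was 0.39 and 0.33, or 0.24 and 0.21 with the rest weighted by depth. Relative to all deep barcodes it was 0.36 and 0.30 in the lowest decile of the score and -0.40 and -0.49 in the highest. The part of RNA quality in the glycolysis, lysosome and metallothionein values was not tested.

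Sterol synthesis was lower. All 22 tested genes lay below 0 in both libraries (100%, against 55.1% of all genes tested), the median log2 ratio was -0.60 in the wild-type library and -0.43 in the humanized library, and 3 genes were called lower at 1.5-fold (5.76% of all genes tested). Acat2 stood at 7.64 and 18.2 CPM against 18.5 and 37.7 CPM, Mvk, the mevalonate kinase, at 6.93 and 12.1 CPM against 13.2 and 21.1 CPM, and the sterol carrier gene Stard4 at 4.00 and 6.90 CPM against 8.62 and 13.2 CPM. Fdps, which makes farnesyl pyrophosphate, stood at 155 and 293 CPM against 279 and 433 CPM. Nucleolar and MYC target genes were lower by less, with 20 of 23 below 0 in both libraries and a median of -0.31 and -0.28, and 0 called. Ncl (nucleolin) stood at 845 and 738 CPM against 1108 and 914 CPM. Genes of the respiratory chain encoded in the nucleus had a median of -0.14 and -0.14, near the -0.11 and -0.09 of all genes tested. Of these 45 genes 39 lay below 0 in both libraries (86.7%, against 55.1%), and 0 were called at 1.5-fold. Ribosomal protein genes had a median of 0.12 and 0.10.

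Signalling and interferon lists differed less evenly. On the list of RAS and MAPK output, 9 of 11 tested genes lay below 0 in both libraries (81.8%, against 55.1% of all genes tested), with a median of -0.50 in the wild-type library and -0.18 in the humanized library. Hbegf, an EGF receptor ligand, was its 1 gene called lower, where 5.76% of all genes were, at 19.4 and 19.9 CPM against 33.0 and 35.0 CPM. Dusp4, a phosphatase induced by the same pathway, went the other way, at 42.3 and 40.1 CPM against 29.5 and 28.8 CPM. Of 18 listed interferon gamma response genes 6 were tested, and all 6 lay below 0 (100%, against 55.1%). Called lower at 1.5-fold were 2 of them. Cxcl10, a chemokine, stood at 5.52 and 1.34 CPM against 13.1 and 6.81 CPM. The GTPase gene Gbp2 stood at 6.70 and 7.79 CPM against 13.9 and 14.7 CPM. A gene near the minimum of 5 CPM can pass it through the rest alone, as Gbp7 did, at 3.53 and 3.89 CPM against 7.87 and 4.88 CPM. Intervals of Gbp7, Irf1 and Socs1 in the humanized library and of Igtp in the wild-type library included no difference. The type I interferon list differed in sign between the libraries, at -0.07 and 0.14, and lay below 0 in both with the rest weighted by depth, at -0.28 and -0.09. Medians of the heat shock, unfolded protein, immediate-early, matrix and mesenchymal lists lay between -0.07 and 0.09 in both libraries, with no gene called at 1.5-fold.

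**Figure D4:**
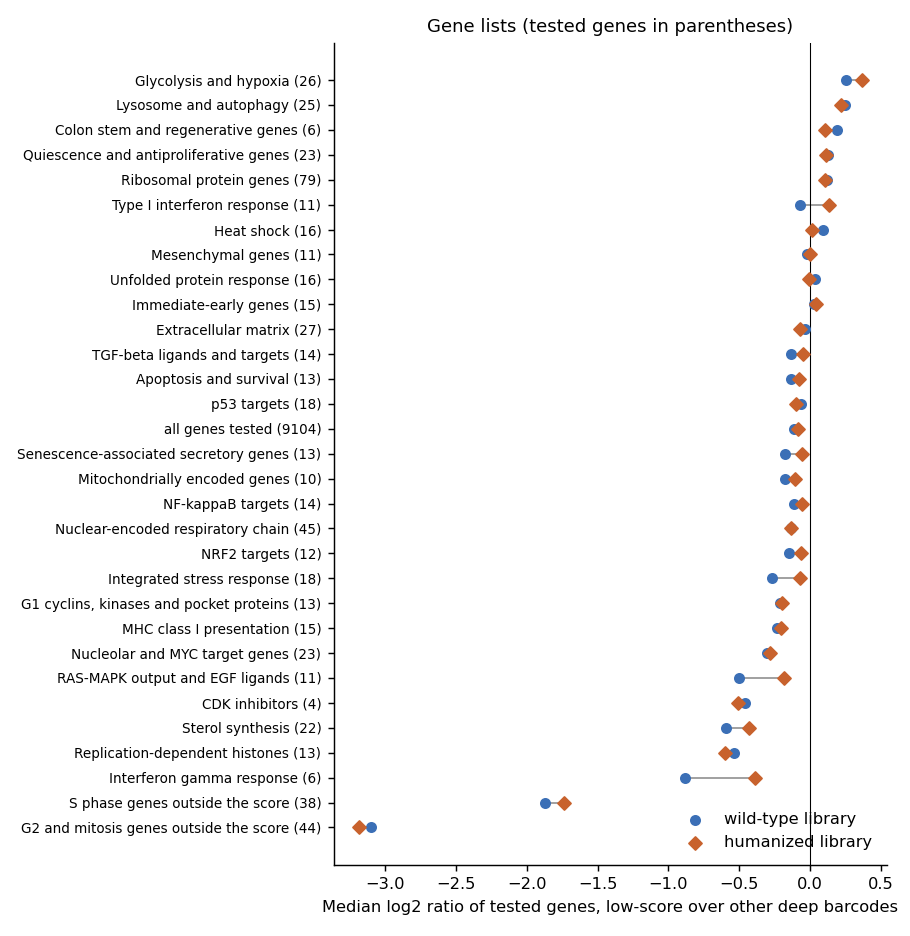
Median log2 ratio of low-score over other deep barcodes (horizontal axis) for each gene list with at least 3 tested genes (vertical axis, number tested in parentheses), in the wild-type (circles) and the humanized library (diamonds). The G2 and mitosis and the S phase lists lie far to the left, and glycolysis and hypoxia and lysosome and autophagy lie furthest to the right, at 0.22 to 0.36.

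Over the deciles these lists moved in steps and not only in the lowest one. The glycolysis and hypoxia median, relative to all deep barcodes, was 0.23 and 0.33 in the lowest decile, 0.17 and 0.23 in the next and -0.12 and -0.13 in the highest. The sterol synthesis median was -0.56 and -0.40 in the lowest decile, -0.23 and -0.28 in the next and 0.25 and 0.27 in the highest. For these 2 lists the lowest decile thus held the most extreme median in both libraries, but the path was not an even slope. The glycolysis and hypoxia median was flat over the upper deciles, at -0.10 to -0.13 over wild-type deciles 6 to 10. The wild-type sterol synthesis median fell back to -0.30 in decile 3.

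**Figure D5:**
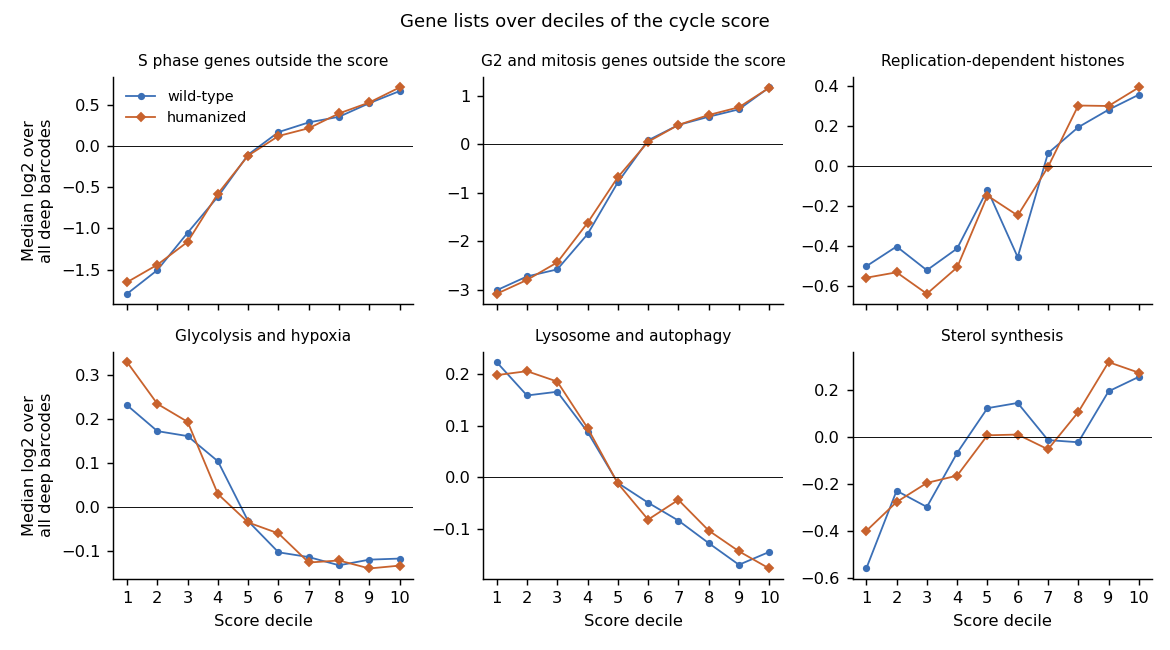
Median log2 ratio of each decile over all deep barcodes of the same library (vertical axes, each panel with its own range) for 6 gene lists over the 10 deciles of the cycle score (horizontal axis). Cycle lists and sterol synthesis are lower in decile 1 than in decile 10, and glycolysis and hypoxia and lysosome and autophagy are higher, in the wild-type (circles) and the humanized library (diamonds). The steps between are uneven.

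Among themselves, low-score barcodes varied about as much as the rest. Over 2048 genes with a mean of at least 0.5 thinned UMIs, the median ratio of variance to mean was 1.22 and 1.20 in low-score barcodes and 1.20 and 1.17 in the rest. Mt1 had the highest value, with a 10th percentile of 18.7 and 14 UMIs and a 90th percentile of 160 and 157 UMIs per 10000. Cryab ranged from 1 and 0 UMIs to 28 and 27 UMIs over the same percentiles. Krt14, a keratin of basal epithelia and the 1 keratin gene among the 20 most variable genes, varied more in low-score barcodes than in the rest, with variance to mean ratios of 10.8 and 9.91 against 6.09 and 4.75. Some summed lists per barcode were related much as in the rest, and others were not. The Spearman correlation of lysosome and autophagy sums with ribosomal sums was -0.27 and -0.23 in wild-type and humanized low-score barcodes. In the rest it was -0.04 and -0.12. Other pairs lay closer, among them those that follow. Metallothionein sums had a Spearman correlation with nucleolar sums of -0.31 over 528 wild-type and -0.35 over 617 humanized low-score barcodes, against -0.38 and -0.36 in the rest, and sterol sums with ribosomal sums one of -0.44 and -0.52 against -0.41 and -0.49. These are descriptions over cells of 1 library each, which share that library and a fixed total of UMIs, so that an abundant list lowers all others.

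The genotypes were compared within low-score barcodes, where genotype cannot be told apart from library, mouse and tumour. Of 8883 genes tested, 12 were at least 2-fold higher in the humanized library (0.135%) and 90 at least 2-fold lower (1.01%), with a median log2 ratio of -0.12 over all genes. With median-of-ratios size factors in place of total UMIs, 29 were higher and 52 lower, so that the balance between the directions depends on the scaling. In the other deep barcodes 2 of 9210 were higher (0.0217%) and 49 lower (0.532%). All 102 genes called in low-score barcodes had the same sign in the rest, and 25 had an interval apart from that in the rest. The same shares were not counted over all genes tested. The 102 were picked by their ratio in low-score barcodes, which favours larger ratios there than in the rest. For these genes the direction of the genotype difference was thus that of the other deep barcodes.

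Among the genes higher in the humanized library were those of sterol synthesis. Acat2 stood at 18.2 against 7.64 CPM, Idi1, the isomerase of the isoprenoid unit, at 31.0 against 13.6 CPM, and Sqle, which commits squalene to sterols, at 41.7 against 18.9 CPM. Their log2 ratios were 1.26, 1.19 and 1.14, against 1.03, 0.77 and 0.66 in the other deep barcodes. Of 22 sterol genes 16 were at least 1.5-fold higher and 0 lower, where 0.844% of all genes tested were higher and 7.04% lower. The list's median was 0.81 against 0.62 in the rest. The remaining named genes were Klk6, Col1a1, Ecscr, Dapk1 and Cxcl1. Cxcl1, a neutrophil-attracting chemokine, stood at 67.8 against 30.4 CPM in low-score barcodes and at 70.5 against 27.5 CPM in the rest.

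Lower in the humanized library were Adam2, at 24.4 against 79.8 CPM, and Bc1, a noncoding RNA, at 32.2 against 113 CPM. Clu (clusterin), an extracellular chaperone, stood at 18.1 against 55.5 CPM, and its ratio of -1.61 (-1.88 to -1.35) lay beside -1.23 (-1.31 to -1.14) in the other deep barcodes. The others named were Col6a6, Sdk2, Mettl18, Ticrr and Atp10d, with log2 ratios from -2.10 to -1.44. A B cell transcript also differed between the libraries. The immunoglobulin gene Igkc had 0 UMIs in wild-type and 70 in humanized low-score barcodes, and 2 and 762 in the other deep barcodes, while the B cell genes Cd79a, Cd79b and Ms4a1 were at 0 in low-score barcodes. Its part in other differences was not tested.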

How the data were processed

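Deposited values are unnormalized UMI counts for each gene in each barcode, with PISA 1.0 named in the file headers, and the submitters' processing notes name build GRCm39. Aligner, annotation and cell calling: not given in the sources used here. The 2 oligo libraries were not used. The libraries held 134214718 and 147738781 UMIs. Counts were summed over barcodes of a class in each library and scaled to CPM. Log2 ratios have exact conditional (binomial) 95% intervals, which cover counting error only. Genes listed for both libraries (22649) with a mean of at least 5 CPM over the 4 sums were tested for size, score and gate genes excepted. With 1 library per genotype no p-value was made.

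Members, the 32 gene lists and the 16 marker lists were chosen with earlier results of these data known. Named genes were the first 15 higher, the first 8 lower on cycle lists, the first 8 lower on none, and the first 8 each way between genotypes, ranked by the smaller ratio over both libraries or by size. Predicted, ribosomal, mitochondrial, receptor and haemoglobin genes were left out, and 1 gene past the 1.5-fold rule is not reported here. No doublet caller was run. Thinning drew 10000 UMIs per barcode with a fixed seed. On simulated sums the 2-fold rule called 50 of 50 genes raised 3-fold, 47 of 47 lowered 3-fold and 0 of 8964 unchanged, and the 1.5-fold rule 12 of 50 raised exactly 1.5-fold. Promoter windows came from RefSeq on GRCm38.p6 and carry no position in the authors' build. Python 3.11.15, numpy 2.4.6, scipy 1.17.1 and pandas 2.3.3 were used.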

Additional observations from a re-analysis of the deposited data

How the results depend on the processing

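No paired analysis was possible because only 1 library per genotype was analysed and no test was made. The shares of 9.99% and 10.0% moved by construction with the percentile, to 4.86% and 5.13% at the 5th and to 21.4% and 18.8% at the 20th. With barcodes thinned to 10000 UMIs before scoring they were 19.6% and 17.4%, since ties at a score of 1 widened the class, and with at least 20000 UMIs they were 10.97% and 8.68%. In these 2 settings and at the 20th percentile the wild-type share was the higher, so near-equal shares depend on the rule. The count of 270 lower genes stayed within 1.5 times in every alternative but the filter of at least 20 UMIs over all sums (419), and each library alone gave 310 to 315. The count of 3 higher genes was 7 with at least 20000 UMIs, 6 with median-of-ratios size factors, 11 with the 20 UMI filter and 5 to 11 with each library alone. Between genotypes, the 12 higher genes became 19 at the 5th percentile, 7 at the 20th, 7 after thinning, 29 with size factors, 35 with the 20 UMI filter and 46 in barcodes with no score UMI. The 90 lower ones became 214 at the 5th percentile, 176 with at least 20000 UMIs, 52 with size factors, 373 with the 20 UMI filter and 255 with no score UMI. Scaling by size factors moved the median of all genes to 0.00 and -0.02. Of the 270 lower genes 248 were called with 10 other cycle genes as score, although 36.6% of those barcodes were shared. Of 28 list medians, 9 differed in sign from the main value in 30 of 420 recomputed values. All 9 were under 0.2 in size, and 0 of the larger ones changed sign. In 143 of the 420, over 25 lists, the median moved by more than the standard deviation of the 2 library medians. Weighting by depth and barcodes with no score UMI were added after the data were seen. No barcode was over 10% mitochondrial, so that alternative changed nothing. Depth limits the genes near 5 CPM most.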
